A study of Mus musculus with 6 samples.

Results

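The genes described here are the SR and hnRNP splicing factors together with a few other regulators of exon choice. They were taken from the array by symbol: every gene whose symbol begins with Srsf or Hnrnp (older Sfrs and Hnrp), and Ptbp1, Ptbp2, Ptbp3, Rbfox2, Tra2a, Tra2b, Tia1, Tial1, Mbnl1 and Mbnl2, without pseudogenes. This gave 40 genes, read by 116 of the 45281 probes on the array, of the 19057 genes with a symbol that it carries. By role they are 12 SR and Tra2 proteins, 20 hnRNP proteins, 3 PTB proteins and 5 other regulators. All 40 passed the filter on dim probes and were tested, among 13916 items in all.

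RNA came from the fornical conjunctival epithelium of mouse embryos at embryonic day 14.5, on a mixed FVB and 129 background. The KO group was 3 embryos of genotype Fgfr2 fx/fx, Le-Cre-positive, and the WT group was 3 wild type embryos, with 1 Illumina array for each embryo. Le-Cre is a Cre driver active in the ectoderm of the eye surface, so recombination is limited to the cells in which it is or was active, and since only the KO embryos are labelled as carrying it and the floxed allele, their effects cannot be told apart from that of losing Fgfr2. The tissue was cut out by laser microdissection, and although the extraction text in the labels speaks of lens tissue, the tissue label, conjunctival epithelium, was followed.

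Splicing factors of these families bind short motifs in pre-mRNA and steer which exons the spliceosome keeps. SR proteins carry a domain rich in arginine and serine and mostly bind enhancers within exons and favour their inclusion, while hnRNP and PTB proteins coat nascent RNA and often, though not always, block nearby splice sites. Fgfr2 itself is a textbook target: a pair of mutually exclusive exons gives an epithelial and a mesenchymal form of the receptor, and PTB, Rbfox2, hnRNP proteins, Tia1 and the epithelial factors Esrp1 and Esrp2 are among the proteins known to act on that choice. Array probes of this kind read the amount of a transcript, mostly near its 3′ end, and not which exons it holds, so the values below are transcript levels of the factors and say nothing of splicing itself.

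At the level of transcripts, none of the 40 splicing factors passed the test in either direction: 0 were higher and 0 lower in KO at an adjusted p below 0.05 (limma, adjusted over all items tested). In the same fit 0.826% of all items were called higher in KO, 1.59% lower, and 2.41% in either direction, which for 40 genes comes to about 1 call. At an unadjusted limma p below 0.05, 1 member was higher (Tra2b) and 2 were lower (Hnrnph2 and Hnrnpa0) in KO, against 7.51% of all items higher and 11.9% lower. Differences below 0 were found for 32 of the 40 members (80%) and for 54.3% of all items. The members' median log2 difference, KO minus WT, was -0.20, and that of all items was -0.09, with single members between -1.61 and 1.68. The direction of the members' median held in each of the alternatives run, but its place relative to the median of all items did not: it lay above that median with median scaling (-0.37 for the members, -0.48 for all items), without scaling between arrays (-0.69 and -0.80) and in the authors' processed values (-0.23 and -0.33).

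Sizes of the differences were small beside those of the array as a whole. A log2 difference of at least 1 in either direction was found for 8 of the 40 members (20%), against 28.7% of all items, and the median size was 0.36 for the members and 0.61 for all items. The 95% interval of the difference lay within 1 log2 unit of 0 on both sides for 17 members (42.5%), against 8.32% of all items. For these 17 genes, as read by their brightest probe, a change larger than 2-fold either way lay outside the interval. Members were also measured more firmly than most items, since 37 of the 40 (92.5%) were detected on all 6 arrays, against 49.9% of all items. Because the tissue was taken whole, fewer cells that express a gene and less RNA per cell cannot be told apart in any value given here.

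**Figure D1:**
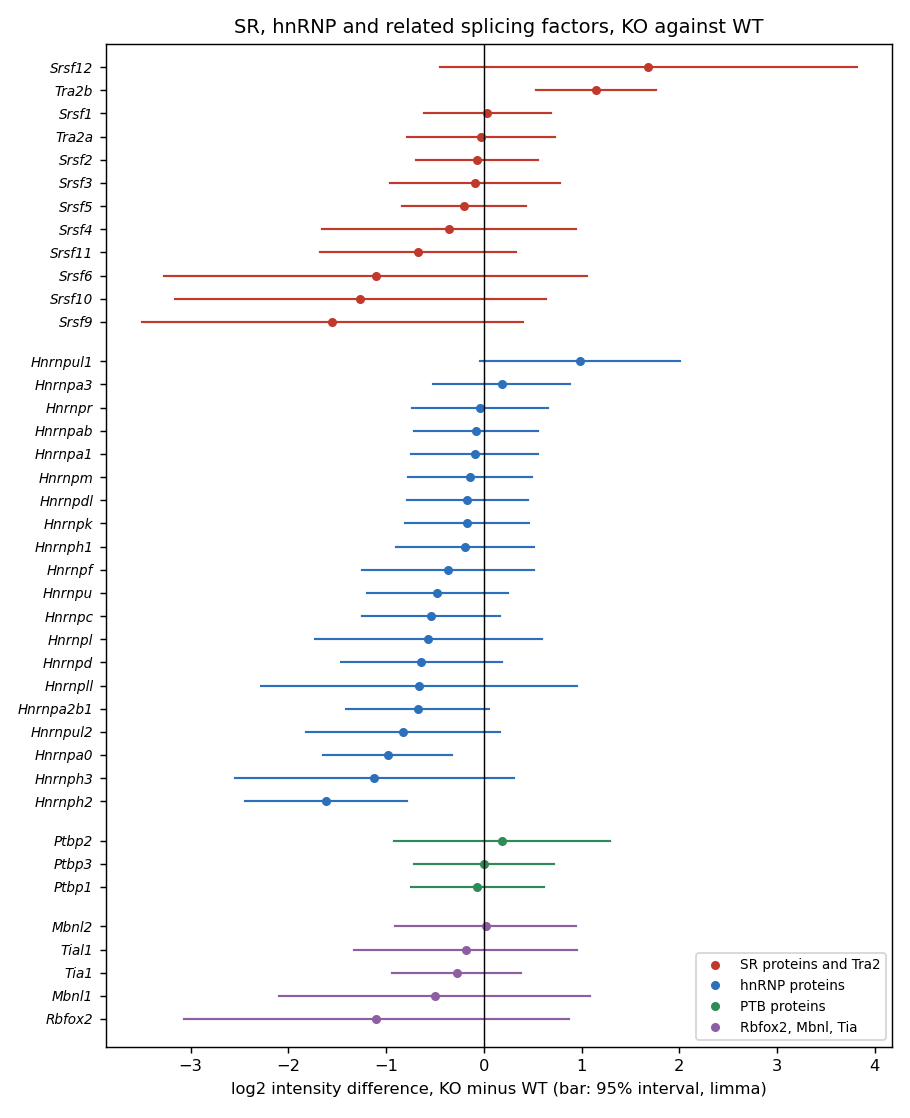
The log2 intensity difference, KO minus WT, of each of the 40 splicing factors (points) with its 95% interval from the limma fit (bars), grouped by role. Only the intervals of Tra2b on the higher side and of Hnrnph2 and Hnrnpa0 on the lower side exclude 0, before any adjustment for the number of items tested.

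Among the SR proteins and their relatives, 9 of 12 differences were below 0, with a median of -0.15, and 5 of the 12 (41.7%) were at least 1 in size. Srsf1 and Tra2a had the smallest differences by their brightest probes. Srsf1, one of the first SR proteins to be isolated, had log2 intensities of 12.06, 12.06 and 11.76 in KO and 11.96, 11.83 and 11.98 in WT, a difference of 0.04 (95% interval -0.61 to 0.68). The other kept probes of Srsf1 both had every KO array below every WT array, with differences of -0.30 (SE 0.28) and -1.48 (SE 0.47, limma adjusted p = 0.18 when every probe was tested), and the mean of its probes differed by -0.58. Tra2a, a relative of the SR proteins that binds exonic enhancers, had 10.38, 9.98 and 10.64 in KO and 10.29, 10.19 and 10.60 in WT, a difference of -0.03 (interval -0.79 to 0.73). On the brightest probes of Srsf1 and Tra2a the groups overlapped. Srsf2, which recognises exonic enhancers and stays in the nucleus, lay between 12.14 and 12.21 in KO and between 12.13 and 12.36 in WT, the smallest spread between KO embryos of any SR protein.

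Srsf9, a small SR protein, had the largest negative difference of this group, but it rested on a very uneven KO group. Its log2 intensity was 7.04, 8.78 and 10.29 in the KO embryos, against 10.27, 10.26 and 10.22 in the WT embryos. The scanner's own intensities behind these values were 171, 465 and 1086 in KO and 1495, 1450 and 1527 in WT. KO replicate C therefore lay at the WT level after normalization, while KO replicate A lay more than 3 log2 units below it. The KO mean was 2.93-fold lower than the WT mean, a log2 difference of -1.55 (SE 0.80) that did not pass the test (limma adjusted p = 0.36). Srsf10, known as a splicing repressor when it is dephosphorylated, had 8.66, 6.71 and 9.46 in KO and 9.19, 9.09 and 10.34 in WT, a difference of -1.26 (SE 0.78, limma adjusted p = 0.43). On this brightest probe KO replicate B was the low one, and the groups overlapped. The second brightest Srsf10 probe had 9.45, 9.70 and 8.45 in KO and 8.73, 8.71 and 8.24 in WT, a difference of 0.64 (SE 0.43). There replicate B was the highest KO array. The other kept probes differed by -1.19 (SE 0.86) and -1.26 (SE 0.45), and on the latter every KO array lay below every WT array.

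Srsf12, an SR protein that antagonises other SR proteins in splicing assays, was the member with the largest positive difference. It had log2 intensities of 7.56, 7.48 and 4.50 in KO and 4.53, 4.65 and 5.31 in WT, and was detected on 2 KO arrays and 1 WT array. KO replicate C lay with the WT embryos. The difference of 1.68 (SE 0.87) did not pass the test (limma adjusted p = 0.36), and of the alternatives run only that without KO replicate C brought it past the threshold, at 2.69 (limma adjusted p = 0.033; range over the alternatives 0.033 to 0.65). In Srsf6 and Srsf4 the KO embryos spread to both sides of WT on the brightest probe of each gene. Both are among the longer SR proteins, with a pair of RNA-binding domains. The log2 intensity of Srsf6 was 7.85, 11.46 and 9.37 in KO, against 10.41, 10.79 and 10.81 in WT, and that of Srsf4 was 9.63, 11.62 and 10.49 in KO, against 10.77, 11.00 and 11.03 in WT. On the brightest Srsf6 probe and the single Srsf4 probe, KO replicate A was the lowest and KO replicate B the highest of all 6 arrays. The second Srsf6 probe had 6.53, 6.66 and 9.11 in KO and 6.50, 6.78 and 7.60 in WT, a difference of 0.47 (SE 0.77). There WT replicate A was the lowest and KO replicate C the highest array. Srsf6 and Srsf4 were singled out after their values were seen, as were Srsf2 above and Tra2b, Srsf5, Hnrnpll and Hnrnpul1 below.

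Tra2b, which binds GAA-rich enhancers and is closely related to Tra2a, was the 1 member whose brightest probe put all 3 KO arrays above the 3 WT arrays. That is 2.5% of members, against 11.3% of all items with every KO array above every WT array. Its brightest probe gave 9.49, 9.58 and 9.45 in KO and 8.34, 8.34 and 8.38 in WT, and scanner intensities of 687, 776 and 622 in KO and 484, 473 and 523 in WT. Both groups were tight, and they did not overlap. The log2 difference was 1.15 (SE 0.25, 95% interval 0.54 to 1.76), which did not pass the test after adjustment (limma adjusted p = 0.084). The gene's other probes did not give the same picture: a second probe averaged 7.67 ± 1.34 in KO and 8.51 ± 0.37 in WT (SD, n = 3 each), a difference of -0.83, and another averaged 6.51 ± 1.18 in KO and 6.13 ± 0.42 in WT, a difference of 0.38. With the mean of the gene's 3 probes in place of the brightest, the difference of Tra2b was 0.23.

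The remaining SR genes stayed within these bounds. By their brightest probes, Srsf11 differed by -0.67 (SE 0.41), Srsf5 by -0.20 (SE 0.26) and Srsf3, the smallest SR protein, by -0.09 (SE 0.36). The other kept probes of Srsf11 all went the other way, at 0.65, 0.77 and 0.43. On the brightest Srsf5 probe all 3 KO arrays lay below all 3 WT arrays, at 11.07, 11.12 and 10.99 in KO and 11.21, 11.16 and 11.41 in WT, but by so little that the interval reached from -0.84 to 0.43. The second Srsf5 probe had 6.43, 9.87 and 8.26 in KO and 9.58, 9.36 and 9.38 in WT, a difference of -1.25 (SE 0.84).

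**Figure D2:**
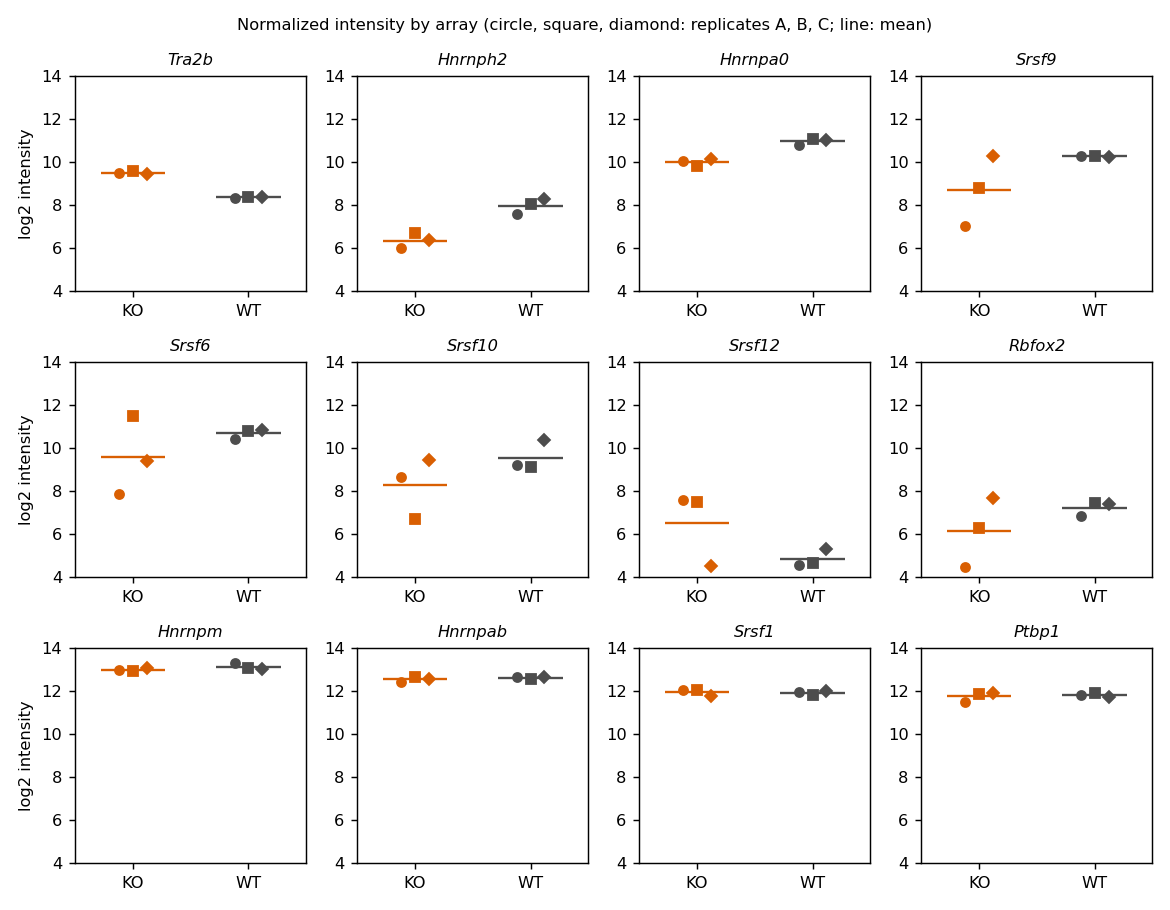
Normalized log2 intensity on each array for 12 splicing factors, each read by its brightest probe only. KO is at the left and WT at the right of each panel. Replicates A, B and C are shown as circle, square and diamond, with a line at the group mean. Tra2b, Hnrnph2 and Hnrnpa0 do not overlap between groups, Srsf9, Srsf6, Srsf10, Srsf12 and Rbfox2 spread widely among KO embryos, and Hnrnpm, Hnrnpab, Srsf1 and Ptbp1 lie close together on all 6 arrays.

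Of the 20 hnRNP proteins 18 had differences below 0, with a median of -0.42. This median was below 0, and below that of all items, under each scaling and filter run, but without KO replicate B it was -0.20, against -0.27 for the SR proteins, and without KO replicate C it was -0.26, against -0.32 for the other regulators. No difference between the role groups was tested. All 3 KO arrays lay below all 3 WT arrays for 7 of the 20 (35%), and for 9 of all 40 members (22.5%), against 17.2% of all items. The 7 were Hnrnph2, Hnrnpa0, Hnrnpa2b1, Hnrnpc, Hnrnpu, Hnrnpk and Hnrnpdl, and the other two members were Srsf5 and Tia1. These counts rest on the brightest probe of each gene, and by it no hnRNP gene had every KO array above every WT array. A second bright Hnrnpk probe, singled out after its values were seen, did. It had 11.52, 11.42 and 11.09 in KO and 11.03, 10.69 and 11.05 in WT, a difference of 0.42 (SE 0.31). With the mean of its probes Hnrnpk differed by 0.25.

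Hnrnph2, a G-run binding protein of the H and F family, had the largest negative difference of all 40 members. Its log2 intensity was 5.99, 6.67 and 6.36 in KO and 7.57, 8.03 and 8.27 in WT, and the scanner intensities were 119, 158 and 128 in KO and 332, 405 and 497 in WT. Every KO embryo lay below every WT embryo, and the spread was alike in both groups (SD 0.34 in KO and 0.36 in WT). The KO mean was 3.06-fold lower, a log2 difference of -1.61 (SE 0.34, 95% interval -2.44 to -0.78). It did not pass the test after adjustment (limma adjusted p = 0.076). The size depended on the processing, with differences between -2.71 and -0.67 over the alternatives run. The lowest log2 intensity among detected probes was 5.36 to 5.41 on the KO arrays, not far below the KO values of Hnrnph2. A second probe for the gene was near the detection limit (4.93 ± 1.00 in KO and 4.65 ± 0.11 in WT; SD, n = 3 each) and gave a difference of 0.28. Hnrnph1, the close paralog of Hnrnph2, differed by -0.19 (SE 0.29); whether the probes of either gene also bind the transcript of the other was not tested, since probe sequences were not used here.

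Hnrnpa0, a member of the A and B family that also binds AU-rich elements in mRNA, was next by p. It had 10.04, 9.79 and 10.12 in KO and 10.81, 11.05 and 11.04 in WT, with scanner intensities of 961, 874 and 971 in KO and 2129, 2420 and 2612 in WT. The groups did not overlap, and both were tight. The KO mean was 1.98-fold lower, a log2 difference of -0.98 (SE 0.27, 95% interval -1.65 to -0.32, limma adjusted p = 0.13). Its second probe was dim, detected on 1 KO array and 3 WT arrays, and differed by -0.04. Hnrnph3, which lacks the first RNA-binding domain of its relatives, had 6.03, 7.54 and 5.38 in KO and 7.40, 7.68 and 7.24 in WT and was detected on 2 KO arrays. Its difference of -1.12 (SE 0.59) did not pass the test (limma adjusted p = 0.36), and KO replicate B lay within the WT range.

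At the other end by its brightest probe, Hnrnpr had 9.26, 9.67 and 9.20 in KO and 9.45, 9.26 and 9.53 in WT. The difference was -0.04 (95% interval -0.73 to 0.66). Hnrnpab, an A and B type protein, had 12.41, 12.65 and 12.54 in KO and 12.66, 12.53 and 12.64 in WT, a difference of -0.08 (interval -0.71 to 0.55). On the brightest probes the groups overlapped fully in both genes. The core hnRNP proteins that package most nascent RNA lay between them and the genes above: Hnrnpa1 differed by -0.09 (SE 0.27), Hnrnpa2b1 by -0.68 (SE 0.30, limma adjusted p = 0.29) and Hnrnpc, which binds runs of uridine, by -0.54 (SE 0.29). By their brightest probes, Hnrnpk, a KH domain protein that binds runs of cytidine, differed by -0.18 (SE 0.26), Hnrnpm by -0.14 (SE 0.26) and Hnrnpdl by -0.17 (SE 0.26). The other kept probes of Hnrnpm differed by -0.77 and -0.88, both with every KO array below every WT array. Those of Hnrnpdl differed by -0.77, -0.64 and -1.26, and those of Hnrnpk by 0.42, -0.23, 0.72 and 0.52. Those of Hnrnpr differed by -1.28, -0.44 and -0.16, and were detected on 1, 0 and 0 KO arrays and on 3 WT arrays each. The second Hnrnpab probe, detected on 2 KO arrays and 3 WT arrays, differed by -0.88 (SE 1.09).

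On the brightest probe of each gene, larger negative differences without separation of the groups were seen in Hnrnpul2 (-0.83), Hnrnpll (-0.66), Hnrnpd (-0.64) and Hnrnpl (-0.57). Hnrnpd binds AU-rich elements and Hnrnpl binds CA-rich repeats. Hnrnpll, the paralog of Hnrnpl known for its part in lymphocyte splicing, had 9.82, 7.74 and 10.14 in KO, against 9.71, 10.06 and 9.91 in WT. On that probe 2 of the 3 KO embryos lay at or just above the WT range. A second Hnrnpll probe, singled out after its values were seen, had 9.17, 8.21 and 8.20 in KO and 9.48, 9.34 and 9.46 in WT. There every KO array lay below every WT array, with a difference of -0.90 (SE 0.38, limma adjusted p = 0.27 when every probe was tested). Hnrnpu, a scaffold protein that also binds DNA, differed by -0.47 and Hnrnpf by -0.37. The hnRNP genes above 0 by the brightest probe were Hnrnpa3, at 0.18, and Hnrnpul1, at 0.98 (SE 0.42, limma adjusted p = 0.27). Hnrnpul1 had 9.31, 8.22 and 9.30 in KO and 7.65, 7.87 and 8.36 in WT on that probe. Its other kept probes differed by -0.36, 0.31, 0.28 and 0.72, all with overlapping groups.

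The PTB proteins, which bind pyrimidine tracts and repress neural and muscle exons in many tissues, had differences under 0.2 in size by the brightest probe of each gene, but not by all their probes. Ptbp1, the form found in most tissues outside the nervous system, had 11.47, 11.86 and 11.91 in KO and 11.81, 11.90 and 11.72 in WT, a difference of -0.07 (95% interval -0.74 to 0.61). Ptbp3 had 9.62, 9.90 and 10.26 in KO and 9.84, 9.92 and 10.03 in WT, a difference of 0.00 (interval -0.72 to 0.72). Ptbp2, the form enriched in neurons, had 8.38, 7.01 and 8.05 in KO and 7.99, 7.21 and 7.68 in WT, a difference of 0.19 (interval -0.92 to 1.29). On these probes KO and WT overlapped in all 3 genes, and for Ptbp2 the interval was too wide to leave out a 2-fold rise. A second Ptbp2 probe, singled out after its values were seen, had 4.48, 5.91 and 4.71 in KO and 6.16, 6.22 and 7.01 in WT, every KO array below every WT array, with a difference of -1.43 (SE 0.50, limma adjusted p = 0.20 when every probe was tested). The 10 probes of Ptbp1 differed by -0.81 to 0.89, and the second Ptbp3 probe by -0.30. With the mean of a gene's probes the differences of Ptbp2 and Ptbp3 were -0.49 and -0.15, and the signs of these genes also turned under several other alternatives, Ptbp2 in 5 and Ptbp3 in 7 of 20.

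Of the other regulators, Rbfox2, which binds UGCAUG motifs, had the largest difference. Its log2 intensity was 4.45, 6.27 and 7.66 in KO and 6.83, 7.44 and 7.41 in WT, a difference of -1.10 (SE 0.81, limma adjusted p = 0.52). On this brightest probe Rbfox2 was detected on 2 of the 3 KO arrays, and KO replicate C lay above all WT arrays. A second Rbfox2 probe, singled out after its values were seen, had 4.41, 6.14 and 5.02 in KO and 6.62, 6.44 and 6.24 in WT. That probe was detected on 1 KO array and 3 WT arrays, and every KO array lay below every WT array. The difference was -1.24 (SE 0.50, limma adjusted p = 0.26 when every probe was tested). Tia1, a protein that binds U-rich sequence beside weak 5′ splice sites, had 9.34, 9.72 and 9.67 in KO and 9.76, 9.89 and 9.89 in WT on its brightest probe, all KO arrays below all WT arrays, with a difference of -0.27 (SE 0.27, limma adjusted p = 0.64). Its other kept probes differed by 0.59, -1.04 and 1.19, all with overlapping groups, and the mean of its probes differed by 0.12. Its relative Tial1 had 9.15, 7.54 and 8.42 in KO and 8.53, 8.30 and 8.82 in WT, a difference of -0.18 (SE 0.47).

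The muscleblind genes bind YGCY motifs and are known for switching exons from fetal to adult forms. Mbnl2 had 9.50, 10.64 and 10.19 in KO and 9.90, 10.05 and 10.32 in WT, a difference of 0.02 (95% interval -0.91 to 0.94). Mbnl1 read by its brightest probe had 6.86, 5.82 and 8.33 in KO and 7.29, 7.40 and 7.84 in WT, a difference of -0.50 (SE 0.65, limma adjusted p = 0.73). A second Mbnl1 probe, singled out after its values were seen, went the other way, with 7.89, 7.14 and 9.09 in KO and 5.78, 5.78 and 5.61 in WT. On that probe the groups did not overlap, and the difference of 2.32 (SE 0.53) missed the threshold when every probe was tested (limma adjusted p = 0.094).

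Probes for 1 gene often disagreed, and this bears on every value above. Of the 40 genes, 6 had a single probe (Srsf4, Srsf9, Srsf12, Tra2a, Hnrnph3 and Hnrnpu), and 34 had at least 2 that passed the filter. In 20 of these 34 the brightest and the second brightest probe had differences of the same sign, and in 18 all kept probes did. The 3 KO arrays came in the same order by both probes in 11 of the 34 genes, and the 3 WT arrays in 5. When each probe was tested by itself, 0 of the 112 kept probes of these genes were called, against 2.06% of all kept probes, and at an unadjusted limma p below 0.05, 7 (6.25%) were lower and 3 (2.68%) higher in KO, against 11.9% of all kept probes lower and 6.6% higher. One of the 3, a dim probe of Srsf2, differed only after normalization: its scanner intensities overlapped, at 136, 149 and 118 in KO and 132, 126 and 139 in WT, while its normalized log2 intensities were 6.48, 6.53 and 6.07 in KO and 4.91, 4.92 and 4.97 in WT. The bright Srsf2 probe differed by -0.07.

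**Figure D3:**
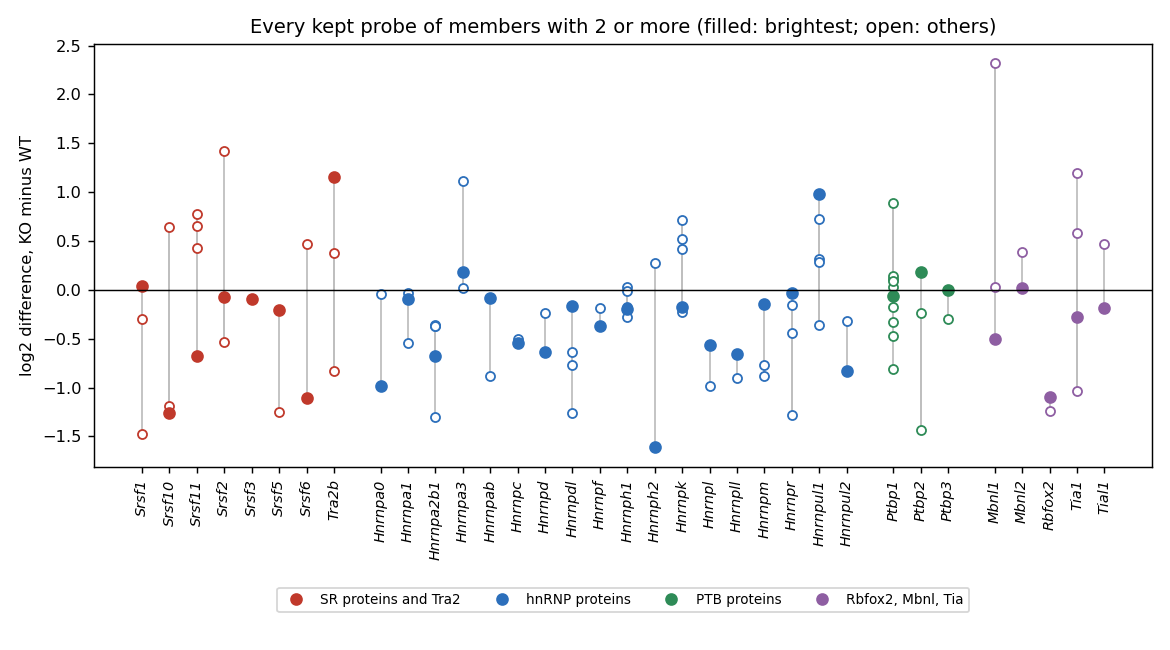
The log2 difference, KO minus WT, of every kept probe of the 34 splicing factors with at least 2 such probes, with the brightest probe of each gene filled and the others open. The probes of Mbnl1, Tra2b, Hnrnph2 and Srsf2 lie on both sides of 0, while those of Hnrnpc and Rbfox2 lie on 1 side.

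Differences between the KO embryos were larger than those between the WT embryos. The SD between KO embryos exceeded that between WT embryos in 34 of the 40 members (85%), against 83% of all items, with a median SD of 0.35 in KO and 0.15 in WT for the members and 0.80 and 0.30 for all items. Over the 40 members, the log2 intensities of a pair of KO arrays correlated at 0.80 to 0.86, those of a pair of WT arrays at 0.98 to 0.99, and those of a KO and a WT array at 0.81 to 0.94, as a description over genes that share each array. No single KO embryo was the low one throughout: replicate A was the lowest KO array for 16 members, replicate B for 13 and replicate C for 11. The 11 members with a KO SD of at least 0.8 fell into all 6 possible orders of the KO arrays. By the brightest probes, KO replicate A was low in Rbfox2, Srsf9, Srsf4 and Srsf6, replicate B in Hnrnpl, Hnrnpll, Mbnl1, Srsf10 and Tial1, and replicate C in Hnrnph3 and Srsf12. These orders rest on the probe used, since the brightest and second probe gave the same KO order in only 11 of 34 members.

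**Figure D4:**
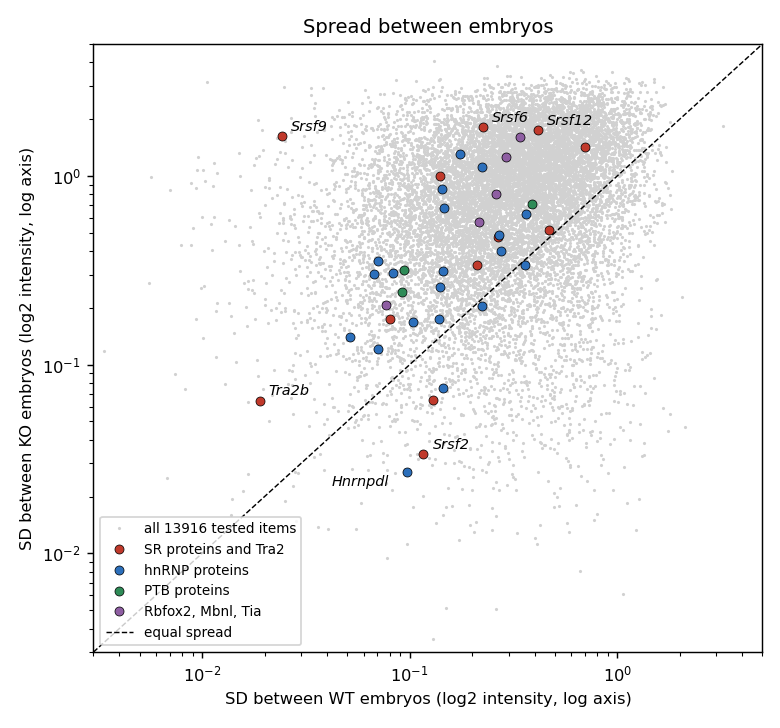
The SD of log2 intensity between the 3 KO embryos (vertical) against that between the 3 WT embryos (horizontal), both on log axes, for the splicing factors by role and for all tested items in grey, with a dashed line of equal spread. Srsf9 and Tra2b have nearly the same small spread in WT, but Srsf9 varies widely between KO embryos and Tra2b does not; 8 items with a spread at or near 0 fall outside the axes.

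Detection of these genes followed that of the array. Of the 116 probes, 103, 103 and 99 were detected in KO and 112, 110 and 112 in WT, which is 87.6% ± 1.99 in KO and 96.0% ± 0.995 in WT (SD, n = 3 each). The difference was -8.33 percentage points for these probes and -15.0 percentage points for all probes on the array, where 34.6% ± 0.32 were detected in KO and 49.5% ± 1.04 in WT. Each was larger than the spread between embryos, and the exact two-sided permutation test gave p = 0.1 for each, the smallest that 3 embryos against 3 can give. The lowest normalized log2 intensity among detected probes was between 5.36 and 5.41 for KO embryos and between 4.62 and 4.67 for WT embryos, so values of dim probes such as that of Srsf12 stand on different floors in the groups. The part of these values in the differences above was not tested.

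The genes that work with these factors were read from 4 lists. Among 11 tested genes of the SR protein kinases, phosphatase and import factor, 0 were higher and 0 lower in KO, with a median of -0.17, and the smallest p belonged to Clk1 (-1.63, limma adjusted p = 0.14), Clk4 (-1.0, adjusted p = 0.15) and Prpf4b (-0.82, adjusted p = 0.31). Clk1 and Clk4 phosphorylate SR proteins in the nucleus. Clk1 averaged 8.75 ± 0.80 in KO and 10.38 ± 0.28 in WT, and Clk4 averaged 10.07 ± 0.38 in KO and 11.07 ± 0.06 in WT (SD, n = 3 each). Of 47 tested core spliceosome genes, 0 were higher and 0 lower, with a median of -0.35, and the smallest p belonged to the Sm protein gene Snrpg (-1.52, limma adjusted p = 0.087) and to Lsm5 (-1.26, adjusted p = 0.12) and Lsm6 (-0.99, adjusted p = 0.15), which encode proteins bound to U6 snRNA.

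Of 14 tested coactivators and exon junction complex genes, 0 were higher and 1 was lower, with a median of -0.60. That gene was Eif4a3, the RNA helicase that anchors the exon junction complex, with 7.09, 6.40 and 5.54 in KO and 9.17, 9.74 and 8.88 in WT. Every KO embryo lay more than 1 log2 unit below every WT embryo, and the difference was -2.92 (SE 0.49, limma adjusted p = 0.044). The mRNA export adaptor Alyref followed at -1.73 (limma adjusted p = 0.086) and Thoc2 at -0.77 (adjusted p = 0.28).

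Of 34 tested genes for other tissue-regulated splicing factors, 1 was higher and 0 were lower, with a median of 0.23. Nova1, best known as a splicing regulator of neurons, had 7.85, 7.09 and 7.65 in KO and 4.38, 4.80 and 4.62 in WT, a difference of 2.93 (SE 0.33, limma adjusted p = 0.017), and was detected on 3 KO arrays and 1 WT array, with scanner intensities of 253, 187 and 221 in KO and 109, 122 and 125 in WT. Rbm5 (-1.60, limma adjusted p = 0.075) came next, then Nova2, with a normalized difference of 1.14 (adjusted p = 0.099). The scanner intensities of Nova2 were not higher in KO, at 112, 117 and 115 in KO and 114, 121 and 126 in WT, and the part of the differing floors in its normalized difference was not tested. Of 7 neural markers on the array, Tubb3, Stmn2 and Elavl4 were undetected on all 6 arrays, while Elavl3, the 1 that passed the filter, was detected on all 6, with 7.58, 6.89 and 8.15 in KO and 7.22, 6.99 and 7.11 in WT (difference 0.43, limma adjusted p = 0.60). The epithelial factors that act on Fgfr2 exons, singled out for that role after their values were seen, did not pass the test, and their groups overlapped. Esrp1 had 11.83, 11.89 and 11.99 in KO and 11.80, 11.59 and 11.91 in WT, a difference of 0.14 (95% interval -0.51 to 0.78), and Esrp2 had 9.02, 8.38 and 9.48 in KO and 8.26, 9.05 and 7.72 in WT, a difference of 0.61 (interval -0.54 to 1.77).

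Facts of the whole array bear on all of these values. The Fgfr2 probe averaged 12.25 ± 0.12 in KO and 12.09 ± 0.11 in WT (SD, n = 3 each; difference 0.16, limma adjusted p = 0.79), and since it is not given whether that probe lies in the deleted part of the gene, it does not check the labels. Of 12 markers of surface epithelium, 0 were called in either direction, and their mean log2 intensity was between 9.22 and 9.53 for KO embryos and between 9.96 and 10.08 for WT embryos. Markers of periocular mesenchyme were called higher in KO for 6 of 11 tested, with a mean of 7.91 to 8.51 in KO and 5.48 to 5.69 in WT, and erythroid markers for 3 of 5, with a mean of 8.31 to 8.62 in KO and 6.39 to 6.80 in WT. Of 4 lens markers tested 1 was higher, and Cryaa and Lim2 were undetected on all arrays. Of 4 leukocyte markers 0 were called, and no endothelial marker passed the filter. The part of these markers in the differences of the splicing factors was not tested.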

How the data were processed

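The deposited scanner table gives, per probe and array, an average bead intensity on a linear scale that is not background-subtracted, with a standard error, a bead number and a p-value of detection, per the file headers. The authors used GenomeStudio, per the submitters' processing notes; its version is not given in the sources used here. A second deposited table of the authors' processed intensity values, whose centring is unknown, served only as an alternative. All 6 arrays lay on 1 slide.

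Background correction (from the p-values of detection, offset 16) and quantile normalization used the functions nec and normalizeBetweenArrays of limma 3.58.1 under R 4.3.3. The log2 transform followed. The filter asked for detection at p below 0.05 in 3 or more of the 6 arrays and kept 20853 of 45281 probes, and each gene was read from its brightest probe over all arrays, which left 13916 items, 10418 of them named genes. Of all probes, 34885 had 1 symbol in the platform annotation, 18 several and 10378 none. KO was compared with WT with lmFit and eBayes, and p-values were adjusted by Benjamini-Hochberg over all items. The fit was tested on simulated data with the same spread in both groups, and so not under the larger KO spread of these arrays. Replicates are separate embryos, and their number limits the precision; the standard error over beads was 2.68% to 7.18% of the intensity for probes of the splicing factors. The members and lists were chosen with earlier results of these data known. Values on every array are given for each called member and, per role, for the 3 largest and 2 smallest differences, and for listed genes for those called or smallest in p; other genes given in full are said to be chosen after their values were seen. No genome build was named, so no coordinates are given. Plots used matplotlib 3.10.9 (Python 3.11.15).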

Additional observations from a re-analysis of the deposited data

How the results depend on the processing

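Over 22 alternatives the 40 members stayed at 0 calls in either direction in most, and the members' median stayed below 0 in each. It was -0.37 with median scaling, -0.69 without scaling between arrays and -0.40 with the mean of a gene's probes, against -0.20 as reported, and -0.25 to -0.19 with 1 embryo left out. Calls higher in KO numbered 1 (Tra2b) at an adjusted p below 0.10, at an unadjusted p below 0.05, with a detection p below 0.01 on all 6 arrays, without a filter, with an offset of 50 and without background correction, and 0 to 1 with 1 embryo left out (Srsf12 without KO replicate C). Calls lower in KO numbered 1 at an adjusted p below 0.10, with detection below 0.01 on all 6 arrays and with median scaling (Hnrnph2), 1 without a filter and without background correction (Hnrnpa0), and 2 without scaling and at an unadjusted p below 0.05 (both). The adjusted p over alternatives lay between 0.011 and 0.72 for Tra2b, 0.012 and 0.37 for Hnrnph2, and 0.022 and 0.41 for Hnrnpa0. Items called over the whole array, 336 as reported, numbered 764 at an adjusted p below 0.10, 2702 at an unadjusted p below 0.05, 185 with array weights, 42 when 2 detected arrays of each group were required, 189 with detection below 0.01 on all 6 arrays, 1050 with median scaling, 660 without a filter, 2052 without scaling, and 12 to 563 with 1 embryo left out (12, 19 and 28 with WT embryo A, B or C left out, and 540 to 563 with a KO embryo left out). Lower items made up 65.8% of calls as reported, 90.2% with median scaling, 95.8% without scaling and 51.8% with cyclic loess. The median of all items moved by -0.40 with median scaling, -0.71 without scaling, 0.18 with cyclic loess and -0.24 in the authors' values.

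With the replicate letter as a replicate block, 0 of 13916 items were called, and 0 of the members. The same-letter samples did not deviate together (correlations of -0.03, -0.0043 and -0.0052). With so few embryos these values cannot settle whether the letters pair embryos. The labels do not say that they do, so the main fit used no pairing.

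Signs reversed for some members, all of them uncalled, and the cause was not tested. With median scaling the differences were -0.0347 for Hnrnpa3, -0.10 for Mbnl2, -0.30 for Ptbp2, -0.13 for Ptbp3 and -0.11 for Srsf1, and without scaling -0.35, -0.42, -0.61, -0.45 and -0.43 for the same genes. With cyclic loess they were 0.22 for Hnrnpr, -0.0811 for Srsf1, 0.17 for Srsf3, 0.0822 for Tial1 and 0.15 for Tra2a. With the mean of a gene's probes they were 0.25 for Hnrnpk, 0.62 for Mbnl1, -0.49 for Ptbp2, -0.15 for Ptbp3, -0.58 for Srsf1, 0.29 for Srsf11, 0.27 for Srsf2, 0.12 for Tia1 and 0.14 for Tial1. In the authors' values Ptbp3 was at -0.0048. With 1 embryo left out the ranges crossed 0 for Hnrnpll (-1.11 to 0.088), Hnrnpr (-0.18 to 0.053), Mbnl1 (-1.16 to 0.090), Mbnl2 (-0.25 to 0.32), Ptbp1 (-0.15 to 0.073), Ptbp2 (-0.10 to 0.59), Ptbp3 (-0.16 to 0.15), Srsf1 (-0.016 to 0.14), Srsf3 (-0.31 to 0.16), Srsf4 (-0.88 to 0.12), Tial1 (-0.57 to 0.23) and Tra2a (-0.18 to 0.15). Dim members are limited by signal over background: Srsf12, Hnrnph3 and Rbfox2 were not detected on all arrays.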
